A study of Anopheles gambiae with 36 samples.

Results

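This report describes 28 genes of the malaria mosquito Anopheles gambiae that switch isoform between the ears of males and females. An isoform is 1 of several transcripts annotated to a gene, and the annotation names it by the gene's identifier and a suffix, so AGAP011462-RA and AGAP011462-RB are isoforms of AGAP011462. The genes were chosen by their mean levels in the sexes. A member has 1 isoform at least 2-fold higher in the male mean and another at least 2-fold higher in the female mean, each with a mean of 50 or more normalised counts in its higher sex. Of 13832 genes in the table, 1341 have at least 2 isoforms, and 28 of these (2.09%) are members. The rule leaves out 4 further genes by name, and 1 of them, AGAP000045, also met the thresholds.

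The samples were the second antennal segments of the Kisumu strain, which hold the Johnston's organ (JO), the auditory organ of the mosquito, taken without the flagella. Each library pooled the segments of 35 mosquitoes of 1 sex, with 3 libraries per sex at each of ZT0, ZT4, ZT8, ZT12, ZT16 and ZT20. Zeitgeber time (ZT) counts the hours from lights on with light for 12 h and darkness for 12 h a day, and ZT12 is the laboratory swarm time. The light cycle was the same for both sexes, and the labels name no other treatment. The study discarded a male library of ZT12, here replicate 3, which leaves 17 male and 18 female libraries.

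A gene can give rise to several transcripts through alternative start sites, splicing or 3′ ends, and these can encode different proteins or differ only outside the coding region. Insects use this to set the sexes apart. In Drosophila, the transcripts of doublesex and fruitless are spliced differently in males and females, and the proteins made from them direct sexual development and courtship. The male mosquito ear is larger, holds more sensory neurons and serves the detection of female flight tones in the swarm. The sources used here give none of the 28 identifiers a name or role, so the genes are called by their identifiers alone and no function is assigned to them.

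Total estimated counts ran from 9341518 to 18254972 per library. No replicate pair of the same group agreed within sampling noise. The summed count of 8 opsin genes, which encode the light-sensing receptors of photoreceptor cells, varied between the libraries. It made up 9.37 to 45.6% of the counts in female libraries and 1.39 to 13.7% in male libraries. The study lists these genes as expressed in the JO, and cites roles of rhodopsins in hearing and mechanosensation in Drosophila. Which cells the opsin counts came from was not tested. Orco, the co-receptor of olfactory neurons in the antenna, had a median of 27.6 normalised counts in females (0 to 282) and 3.54 in males (0 to 123). Markers of the chordotonal neurons of the JO were not analysed here. In such bulk samples, fewer cells of a type and less RNA per cell cannot be told apart.

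The 28 genes have 109 annotated isoforms, of which 72 switch, 34 higher in males and 38 higher in females. In 18 genes 1 isoform of each kind switched. Several isoforms were higher in males in 5 genes, and several were higher in females in 5 genes, up to 5 in a single gene. The genes hold 2 to 13 isoforms with a median of 3, against a median of 2 for all genes with at least 2. A gene with more isoforms has more pairs that can meet the rule, and 20 of the 28 have 3 or more isoforms, against 377 of the 1341. The means of the male-higher isoforms in males ran from 56.6 to 16309 normalised counts, and those of the female-higher isoforms in females from 59.2 to 1815. The lower ends were alike and the upper ends differed, in counts that are not corrected for transcript length.

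**Figure D1:**
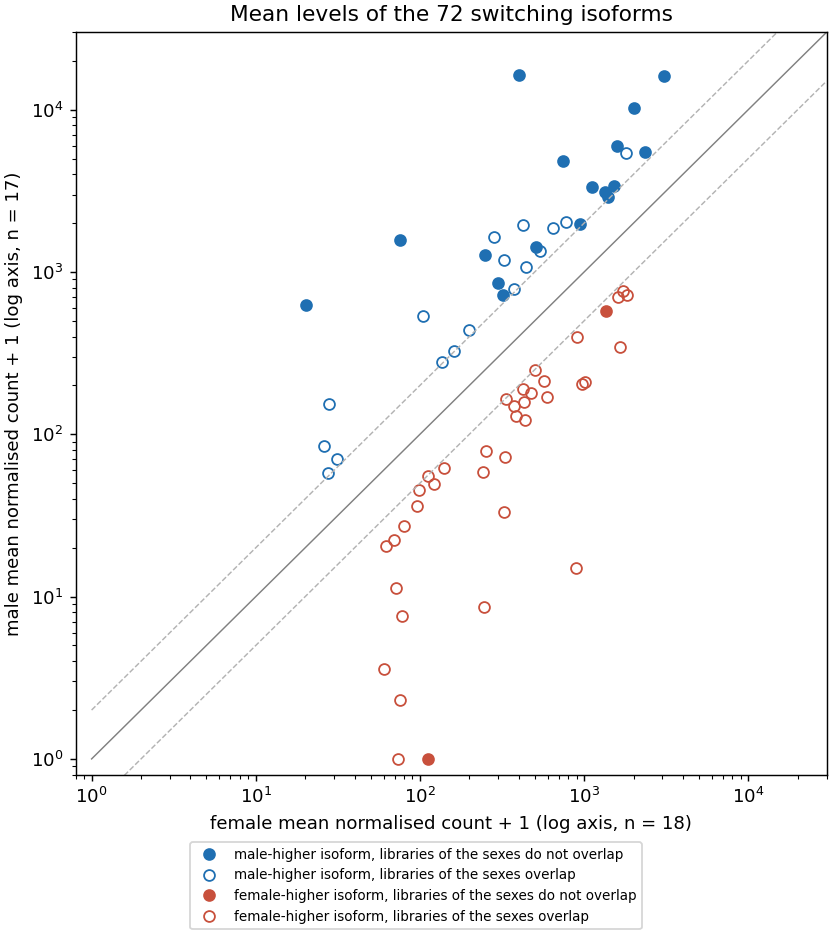
Mean normalised counts of the 72 switching isoforms in 18 female (x axis) and 17 male libraries (y axis), with 1 added and both axes logarithmic. The solid line marks equal means and the dashed lines a 2-fold difference. The rule places every point outside the dashed lines, apart from the shift by the added 1. Filled points, 17 male-higher and 2 female-higher isoforms, are those whose libraries of the sexes do not overlap.

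The counts are as deposited and are not divided by transcript length, so isoforms are compared between libraries and shares of a gene's counts are not molar shares. Reads that fit several isoforms were divided among them before deposit. Of the 72 switching isoforms, 54 had no whole-number value among their values above 0 (tolerance 1e-06), and in the other 18 at least 89.7% of such values were not whole. In all isoforms of the 1341 genes that reach the minimum mean, the median was 100%, and in genes with 1 isoform it was 0%. The estimates for 2 isoforms of 1 gene in 1 library are therefore not independent of each other.

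Since the means of the sexes chose the members, all values that compare males with females are given as a description, with no test. The spread over libraries shows how evenly a difference was carried. For 17 of the 34 male-higher isoforms every male library lay above every female library. This was so, in the other direction, for 2 of the 38 female-higher isoforms, AGAP009104-RD and AGAP029109-RA, which are named here after their values were seen. Among all isoforms with the minimum mean in 1 sex, the libraries of the sexes did not overlap, in either direction, for 11.4%, and the rule used this contrast. The female-higher isoforms varied more in their higher sex, with a median coefficient of variation of 50.03% (19.4 to 174%), against 25.4% (11.3 to 84.0%) for the male-higher isoforms in males. At least 1 female library stood at 0 for 9 of the 38 female-higher isoforms, and at least 1 male library stood at 0 for 1 of the 34 male-higher isoforms. The 2 kinds are measured here in different sexes and at different levels. The spread over all isoforms of each sex is not given, so these differences are not read as traits of either kind.

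In each library, the log2 ratio of the leading male-higher over the leading female-higher isoform, with 1 added to each, summarises the switch of a gene. The leading isoform of each kind is the one with the highest mean in its higher sex. Every male library had a higher ratio than every female library in 12 of the 28 genes. At single time points, where 3 libraries of 1 sex meet 3 of the other (2 males at ZT12), the ratios did not overlap within each of the 6 time points in 15 genes and at 5 of 6 in another 6 genes. The other 7 genes had no overlap at 4 time points in 3 genes, at 2 in 3 genes and at 1 in AGAP003238. As a background, the isoforms with the highest and the lowest ratio of sex means were paired in all 1012 genes with at least 2 isoforms at the minimum mean. The ratios of such pairs did not overlap over all libraries in 6.23% of genes, at every time point in 10.3% and at 5 or 6 time points in 17.4%, against 12, 16 and 22 of the 28 members. The members were chosen by this contrast, so nothing is read from the difference.

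**Figure D2:**
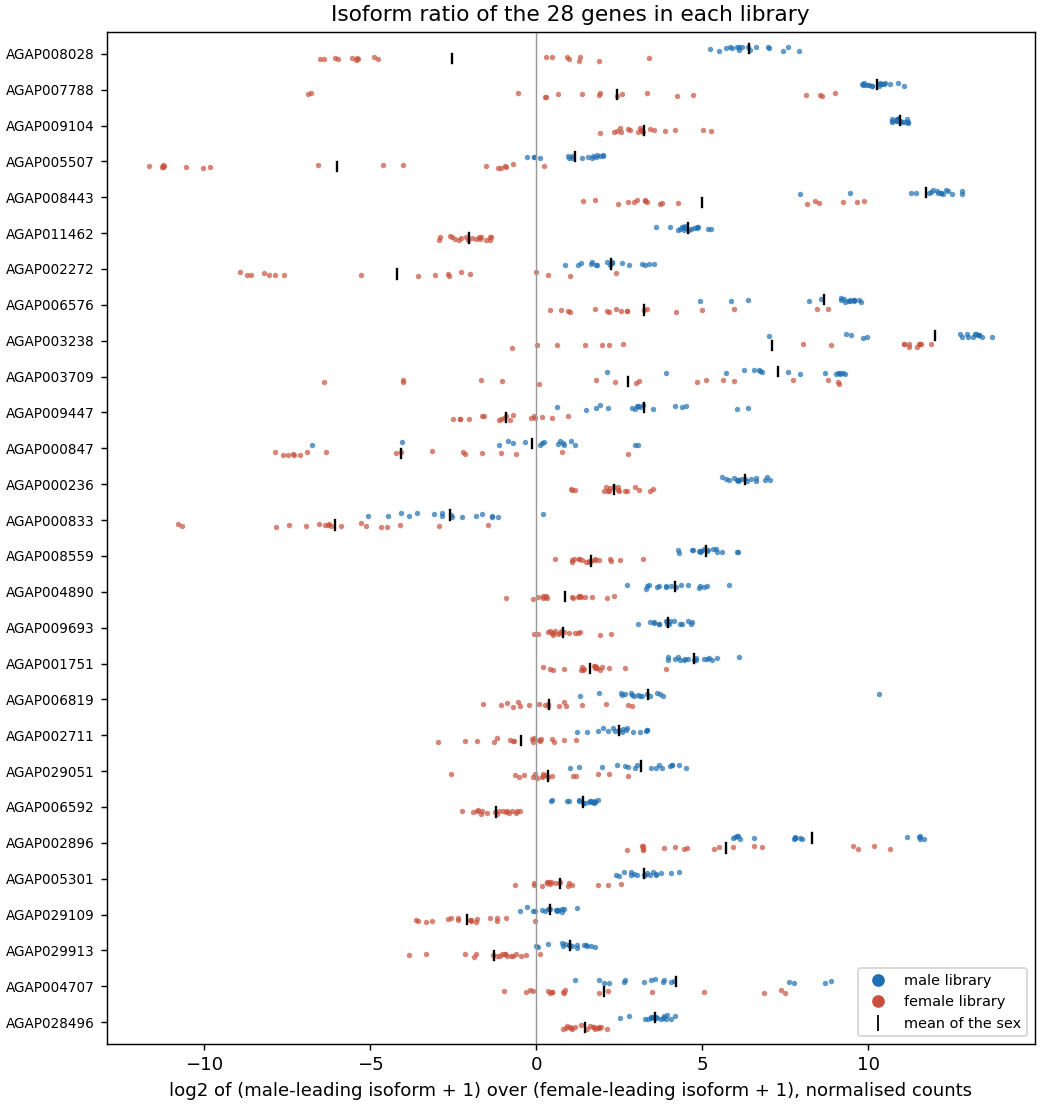
Log2 ratio of the leading male-higher to the leading female-higher isoform (normalised counts, 1 added to each) in every library of the 28 genes, ordered by the difference between the sexes' means. Points are libraries, blue for males (17) and red for females (18), and black ticks are means. Blue and red points are apart in 12 genes, AGAP011462 and AGAP009104 among them, and interleave in AGAP003709.

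The isoform with the highest count in the sex mean was not the same in males and females in 7 genes, and was the same in 21. In AGAP011462 every library followed the mean of its sex. AGAP011462-RA had 11639, 15456 and 21946 normalised counts in males (lowest, median and highest of 17) and 129, 387 and 777 in females (of 18). AGAP011462-RB had 403, 708 and 1032 in males, against 489, 1734 and 2844 in females. Thus -RA stood apart in the sexes while the libraries for -RB overlapped. The share of -RA in the gene's count was 95.8% ± 1.18 over the males (SD, n = 17) but 20.1% ± 5.41 over the females (SD, n = 18), with -RB making up the rest. The highest isoform was -RA in 17 of 17 male libraries and -RB in 18 of 18 female libraries. The gene's total was also higher in males, by 3.08 on the log2 scale, so that -RB had the smaller change, -1.20, against 5.34 for -RA.

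AGAP008028 has 3 isoforms. AGAP008028-RA had 903, 1616 and 2300 counts in males, and in females 0, 0 and 301, with 10 of 18 female libraries at 0. Its share was 82.7% in males (51.5 to 99.3%) and 10.8% in females (0 to 50.1%), and the libraries of the sexes did not overlap in counts. The highest isoform in females was -RC, at 79.9% ± 16.9, which did not meet the thresholds as a female-higher isoform. The isoform that did was -RB, at 7.24, 20.6 and 39.7 counts in males, against 12.6, 59.2 and 104 in females. -RA was the highest isoform in 17 of 17 male libraries, and -RC in 17 of 18 female libraries.

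For AGAP006592, -RA had 1172, 1718 and 3780 counts in males, against 324, 701 and 1430 in females, while -RB had 471, 729 and 1245 in males, against 1007, 1751 and 2701 in females. For both isoforms the sexes overlapped in counts, but the ratio of -RA to -RB did not overlap, from 0.44 to 1.86 in males and from -2.23 to -0.48 in females on the log2 scale. The share of -RB was 17.97% ± 6.43 in males and 59.8% ± 7.34 in females, and it was the highest isoform in 18 of 18 female libraries. The other isoform, -RC, was higher in males too, and took first place over -RA in some male libraries, which left 13 of 17 with -RA as the highest.

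The change of the highest isoform rested on fewer female libraries in the other 4 genes. AGAP002272-RC had 291, 540 and 841 counts in males, against 0, 44.6 and 553 in females, and AGAP002272-RB had 46.7, 82.4 and 317 in males, against 58.1, 446 and 846 in females. The libraries of the sexes overlapped for both isoforms, with -RC first in 16 of 17 males and -RB first in 12 of 18 females. AGAP002711-RD had 648, 812 and 1108 counts in males, against 135, 301 and 571 in females, with no overlap, and its -RB had 79.9, 144 and 280 in males, against 199, 377 and 1053 in females. -RB led in 10 of 18 female libraries.

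In AGAP009447, -RA had 982, 1458 and 1723 counts in males, against 223, 480 and 840 in females, with no overlap. Its -RB had 19.4, 158 and 638 counts in males, against 431, 866 and 1748 in females. Here 3 further isoforms were also female-higher, and -RH had 0, 4.61 and 113 counts in males against 89.3, 849 and 2191 in females. The share of -RA was 81.8% ± 11.8 in males and 20.7% ± 13.5 in females, where the count was spread over -RB at 32.4% ± 6.46, -RH at 25.2% ± 13.4 and others. -RB was the highest isoform in 8 of 18 female libraries. In AGAP003238 it was -RC in 8 of 18, at 35.4% ± 4.75 of the gene's count, close to -RB at 33.2% ± 5.37.

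**Figure D3:**
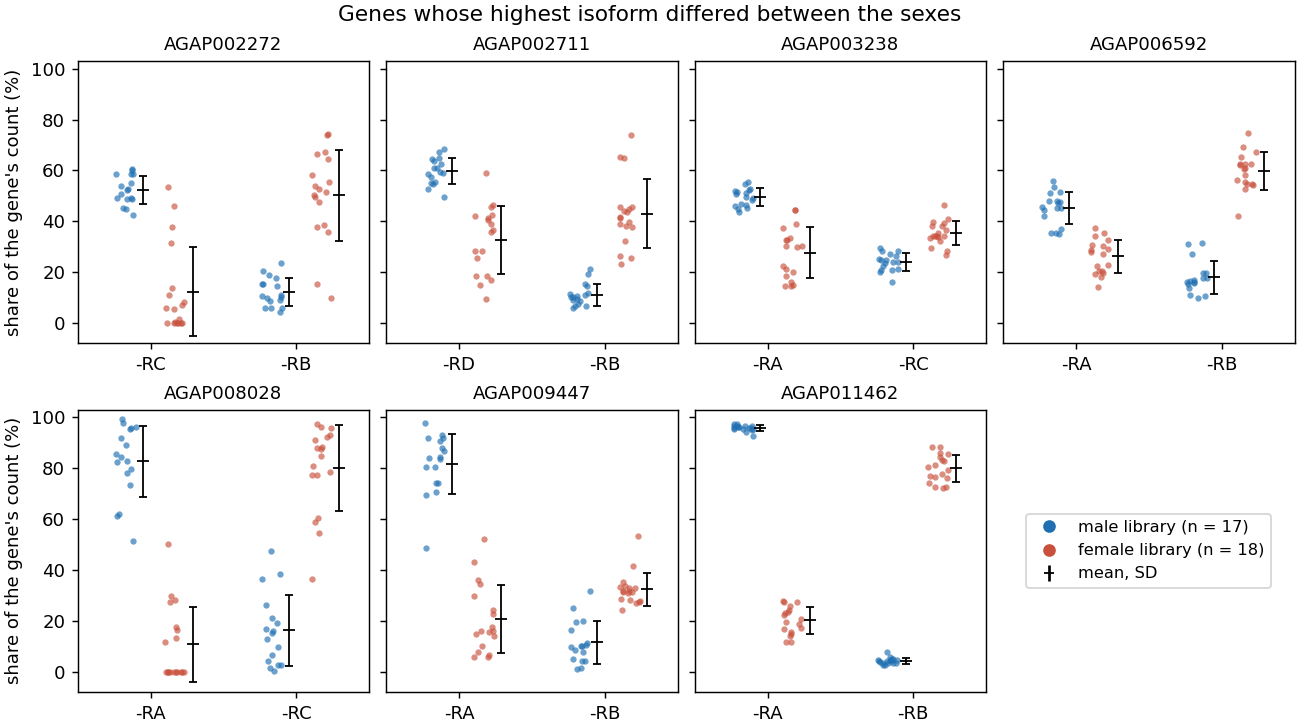
Share of the gene's normalised count (%) taken by the highest isoform of the male mean (left in each panel) and of the female mean (right) for the 7 genes in which they differ. Points are libraries, blue for 17 males and red for 18 females, with the mean and SD in black. The sexes lie far apart for both isoforms of AGAP011462. For both of AGAP002272 the ranges overlap, with -RC at 42.3 to 60.4% in males and 0 to 53.3% in females.

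The largest switches were ranked by the smaller of the log2 ratios of the leading pair, taken between the sex means with 1 added. AGAP008443 came first at 2.71. AGAP008443-RD had 2486, 4665 and 7223 counts in males, against 284, 797 and 1402 in females, with no overlap. AGAP008443-RB had 273, 560.0 and 1401 counts in males and stood at 0 in 13 of 18 female libraries, with 213 in the highest. The female-higher isoform -RA stood at 0 in 14 of 17 male libraries, with 13.5 in the highest, and had 0, 67.3 and 250.2 counts in females, 6 of them at 0. In both sexes -RD took most of the gene's count, 88.9% ± 4.10 in males and 90.0% ± 7.94 in females. Hence -RD remained the main isoform, -RA was a minor isoform of the female libraries, and the gene's total was 2.71 higher in males on the log2 scale.

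AGAP007788 followed at 2.36. AGAP007788-RB had 889, 1285 and 2149 counts in males, against 0, 271 and 513 in females. AGAP007788-RA stood at 0 in all 17 male libraries and had 0, 58.2 and 236 counts in females, where 4 libraries were at 0. Against a floor of 3 counts over the male libraries, the female mean was 526-fold higher. This value covers counting error in males only, and not how shared reads were divided. It is no lower limit, since the zeros are of rounded estimates and the spread of the female libraries is left out. AGAP009104-RD also stood at 0 in all 17 male libraries and had 16.2, 117 and 219.6 counts in females, none of them at 0. Its female mean was 809-fold above the same floor, with the same limits. The main isoform of that gene, AGAP009104-RA, had 1667, 1913 and 2314 counts in males, against 664, 890 and 1399 in females, so the sexes did not overlap for either isoform.

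AGAP003238 and AGAP003709 carried their female-higher isoform in part of the female libraries. AGAP003238-RA had 6888, 10075 and 16207 counts in males, against 867, 2082 and 3799 in females, with no overlap. AGAP003238-RD stood at 0 in 12 of 17 male and 9 of 18 female libraries, while the highest female library had 1546. AGAP003709-RD had 67.7, 1230 and 2135 counts in males, against 0, 235 and 1542 in females. AGAP003709-RA had 0, 6.15 and 50.7 in males, against 0, 12.4 and 370 in females. For all isoforms of AGAP003709 named here the sexes overlapped, and the female mean of -RA rests on the upper libraries.

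The remaining large switches had levels well above the minimum in both isoforms. AGAP008559-RB had 2742, 5302 and 8015 counts in males, against 378, 1711 and 3437 in females, and AGAP008559-RA had 52.3, 145 and 405 in males, against 137, 613 and 1037 in females. The counts of the sexes overlapped for both isoforms, yet the ratio did not, at 4.25 to 6.06 in males and 0.56 to 3.20 in females. AGAP001751-RB had 2248, 3403 and 4329 counts in males, against 474, 1074 and 2081 in females, and AGAP001751-RA had 48.3, 126 and 218 in males, against 49.3, 362 and 712 in females. Only -RB was without overlap, and it remained the main isoform in both sexes.

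Among the genes with the highest levels of the lower isoform, AGAP004890 and AGAP005507 kept the same main isoform in both sexes. AGAP004890-RB had 2682, 3260 and 4119 counts in males, against 989, 1515 and 2473 in females, without overlap. AGAP004890-RA had 58.2, 201 and 407 in males, against 305, 912 and 3482 in females. The share of -RA was 5.89% ± 2.98 in males and 36.6% ± 13.1 in females. AGAP005507-RA had 891, 1622 and 2384 counts in males, against 0, 48.1 and 1594 in females, and AGAP005507-RC had 467, 683 and 1136 in males, against 841, 1673 and 3230 in females. The gene's total differed by only -0.21 on the log2 scale.

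Over the 28 genes, the summed count of all isoforms was at least 2-fold higher in males in 8, at least 2-fold higher in females in 1, and within 2-fold in 19. Their log2 ratios spanned -2.08 to 3.08 (median 0.69). The gene higher in females was AGAP000833, named here after its values were seen. Its total had a median of 359 in males and 1690 in females, most of it from -RB, which made up 82.7% ± 12.9 of the male and 96.4% ± 6.28 of the female count.

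The genes nearest to the fold threshold show how narrowly some were included. AGAP028496 had folds of 2.09 for its male-higher and 2.04 for its female-higher isoform, and AGAP029913 had 2.02 and 2.05. Just outside stood AGAP012141, with 1.99 and 5.46, and AGAP001372, with 1.98 and 4.74.

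Whether the isoforms changed over the day was tested within each sex, which the means over the day did not fix. Of the member isoforms that switch, 2 of 69 tested in males and 2 of 72 in females had a time effect (edgeR quasi-likelihood F-test over 6 time points, Benjamini-Hochberg adjustment over all isoforms tested). Among all isoforms tested, 1.67% had a time effect in males and 1.23% in females, so the share of the members was near that of all isoforms.

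AGAP006592-RC was called in both sexes, in separate libraries. In males it had 784 ± 141 normalised counts at ZT0, 1376 ± 219 at ZT4, 5246 ± 542 at ZT8 and 1682 ± 714 at ZT12, followed by 1337 ± 574 at ZT16 and 1214 ± 588 at ZT20 (SD, n = 3, and n = 2 at ZT12). All 3 libraries of ZT8, at 4731 to 5812, lay above the other male libraries. In females it had 173 ± 81.1 at ZT0, 303 ± 121 at ZT4, 882 ± 131 at ZT8, 513 ± 89.4 at ZT12, 362 ± 75.5 at ZT16 and 297 ± 47.3 at ZT20 (SD, n = 3). The ZT8 libraries, at 748 to 1009, were again the highest. The edgeR adjusted p was 0.00198 in males and 0.0181 in females. In males it passed without each library in turn (adjusted p up to 0.0156). In females it was lost without ZT0 replicate 1 or ZT8 replicate 1 (adjusted p up to 0.0862). Leaving out all libraries of 1 replicate number leaves 2 per time point, but 1 for males at ZT12 without replicate 1 or 2. It removed the call in both sexes. So did the discarded library in males (adjusted p = 0.0664) and total counts as the only scaling in females (adjusted p = 0.300).

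The other isoforms of AGAP006592 did not pass the edgeR test. For AGAP006592-RA the male mean was 3486 ± 406 at ZT8 and between 1524 and 1999 at the other times, with an edgeR adjusted p of 0.0730. DESeq2 called it in males. For AGAP006592-RB the means ran from 568 to 1009 in males and from 1411 to 2092 in females over the day.

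AGAP005301-RA was called in males. It had 3081 ± 603 counts at ZT8 and 1209 ± 239 at ZT16, with means of 1606 to 1925 at the other times (edgeR adjusted p = 0.0431). This call was kept only when the library left out was ZT12 replicate 2 or ZT20 replicate 1, and was lost without any of the other 15 male libraries (adjusted p up to 0.240). AGAP009447-RB was called in females. It had 562 ± 203 counts at ZT8, 1461 ± 252 at ZT16 and 1234 ± 146 at ZT20 (edgeR adjusted p = 0.0318). It was kept without ZT0 replicate 2 or 3, ZT4 replicate 3, ZT8 replicate 2 or ZT12 replicate 1, and was lost without any of the other 13 female libraries (adjusted p up to 0.107). Both calls were also lost with total counts (adjusted p of 0.119 and 0.543) and without replicate 1, 2 or 3, and the call in males with the discarded library (adjusted p = 0.155).

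**Figure D4:**
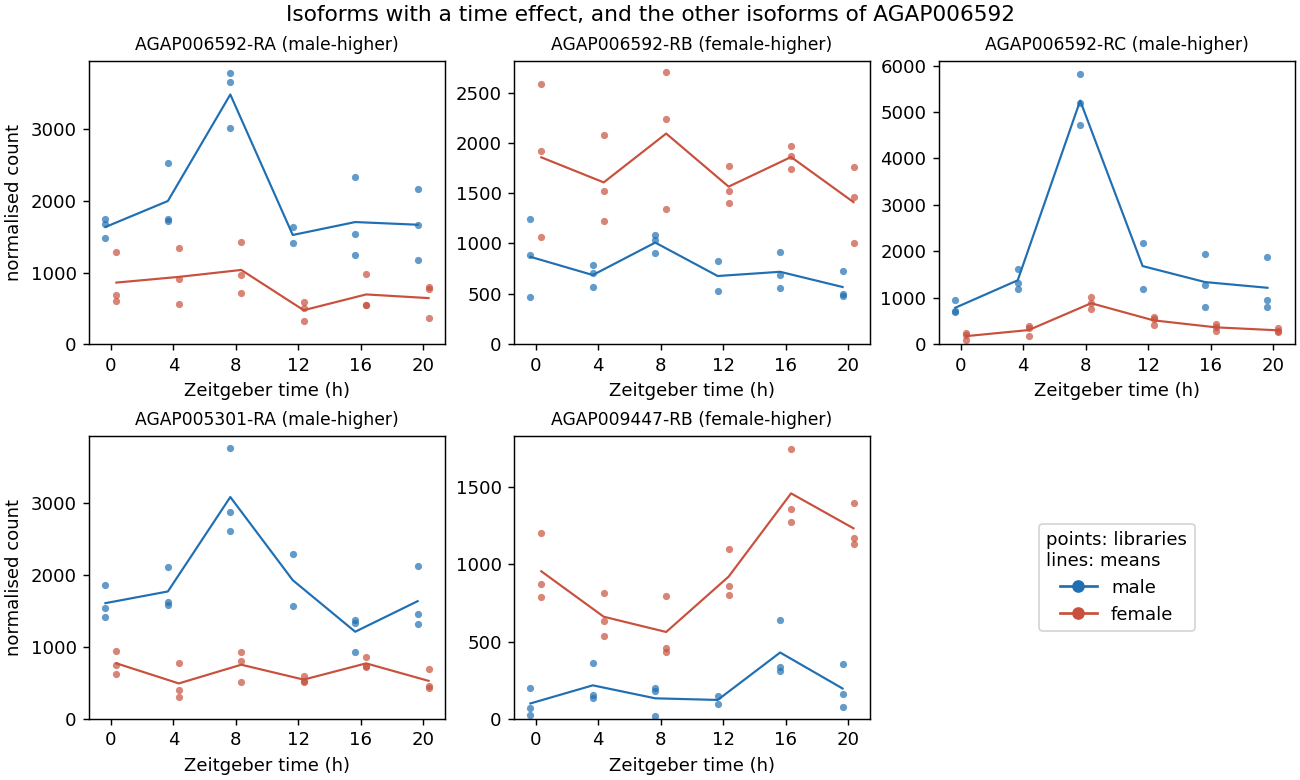
Normalised counts over Zeitgeber time (h) of the 3 isoforms with a time effect and of the other isoforms of AGAP006592, with males in blue and females in red. Points are libraries (3 per sex and time, 2 for males at ZT12) and lines join the means. AGAP006592-RC was highest at ZT8 in both sexes, at 5246 in males and 882 in females.

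Whether the difference between the sexes varied over the day was tested by the interaction of sex and time. Of 72 isoforms, 0 passed (edgeR, smallest adjusted p = 0.672), 6 had an unadjusted p under 0.05, and DESeq2 called 2. Among all isoforms tested, 0.00775% passed in edgeR, 4.52% had an unadjusted p under 0.05, and DESeq2 called 0.636%. For AGAP006592-RC the adjusted p of the interaction was 1. Isoform usage, the level of an isoform relative to the others of its gene, was compared between ZT12, the swarm time, and the other times within each sex (edgeR diffSpliceDGE). In males 0 of 28 genes passed, with 1 at an unadjusted p under 0.05 and a smallest adjusted p of 0.299, where 0.164% of all genes passed and 7.31% had such an unadjusted p. In females 0 of 28 passed, with 5 at an unadjusted p under 0.05 and a smallest adjusted p of 0.106, where 1.16% of all genes passed and 9.25% had such an unadjusted p. limma's diffSplice called 0 of the 28 in both sexes, and 0.493% of all genes in males and 0.330% in females.

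The opsin level of the libraries differed between the sexes and also varied within each. In normalised counts it ran from 1504190 to 11743000 in females and from 171725 to 1691490 in males. Within females, 14 of the 72 isoforms changed with it (edgeR quasi-likelihood F-test of the slope with time in the model, adjusted over all isoforms tested), against 6.78% of all isoforms tested. The slopes below are the change in log2 count for each doubling of the opsin count. Falling slopes were found for 12 isoforms, against 3.02% of all isoforms, and rising slopes for 2, against 3.76%. Of the 12, 10 were male-higher and 2 female-higher isoforms, and both rising ones were female-higher. The median slope over the male-higher isoforms was -0.37, and over the female-higher isoforms -0.35. These medians include isoforms at 0 in some libraries, and the median over all isoforms is not given, so nothing is read from them.

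The lowest adjusted p was that of AGAP003238-RA, with a slope of -0.69 (standard error 0.12, edgeR adjusted p = 0.00436). AGAP008443-RD had a slope of -0.64 (standard error 0.11, edgeR adjusted p = 0.00494). AGAP002711-RB rose with a slope of 0.75 (standard error 0.14, edgeR adjusted p = 0.00548). Of the 14 calls, 8 passed without each female library in turn, these 3 among them, and 6 were lost without at least 1 library. The count of calls was lowest, 9, without ZT20 replicate 2, the female library with the highest opsin count. It was 0 without all libraries of replicate 2 or of replicate 3. With total counts as the only scaling it was 42.

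Within males, 1 of 69 isoforms tested changed with the opsin count, AGAP008443-RD, with a slope of -0.21 (standard error 0.04, edgeR adjusted p = 0.00818), against 1.59% of all isoforms tested, 1.48% rising and 0.113% falling. It was lost with the discarded library and without replicate 1, 2 or 3. Slopes in males and females were not tested against each other.

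Isoform usage followed the opsin count in females in 3 of 28 genes (edgeR diffSpliceDGE), against 3.30% of all genes tested. In simulated data this test made more false calls than its threshold allows. AGAP005507 had the lowest adjusted p, 1.60e-04. In the 6 female libraries with the highest opsin counts (5567310 or more), AGAP005507-RA had between 0 and 1.62 normalised counts and AGAP005507-RC between 2351 and 3230. In the female library with the fewest opsin counts they had 516 and 841. Libraries of like opsin level differed widely. ZT0 replicate 2 had 1594 counts of -RA and ZT0 replicate 1 had 1.64, at 3956350 and 4257820 opsin counts. The main isoform, AGAP005507-RB, had a slope of 0.10 (standard error 0.11, edgeR adjusted p = 0.663), against -6.62 for -RA (standard error 1.57, edgeR adjusted p = 0.0235) and 0.61 for -RC (standard error 0.12, edgeR adjusted p = 0.00954). The slope of -RA passes through libraries at 0 and depends on the prior count of the fit. The usage call was kept without each of the 18 female libraries in turn (adjusted p up to 0.00332), and was lost without all of replicate 2 (0.0687) or of replicate 3 (0.126).

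AGAP003238 came next (edgeR adjusted p = 6.58e-04). AGAP003238-RD was at 204 counts or more in 7 of the 18 female libraries, 5 of them among the 6 with the highest opsin count, and at 6.85 or less in the other 11. One of the 7 was ZT0 replicate 1, with 1546 counts at 4257820 opsin counts. The usage call was lost without ZT12 replicate 2 (adjusted p = 0.0574). Of 7 alternative settings in edgeR or limma, 2 also lost it (adjusted p up to 0.885). AGAP000236 was near the threshold (edgeR adjusted p = 0.0467). Its -RB made up 91.4% ± 1.68 of the gene's count in males and 61.0% ± 14.9 in females, where the lowest share was 28.3% in ZT0 replicate 1. This call was kept without ZT0 replicate 1 or 3, ZT8 replicate 1 or 2, ZT12 replicate 1 or ZT16 replicate 1. It was lost without any of the other 12 female libraries (adjusted p up to 0.150). Of the 7 alternative settings, 3 also lost it (adjusted p up to 0.942), limma's diffSplice among them (adjusted p = 0.108).

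**Figure D5:**
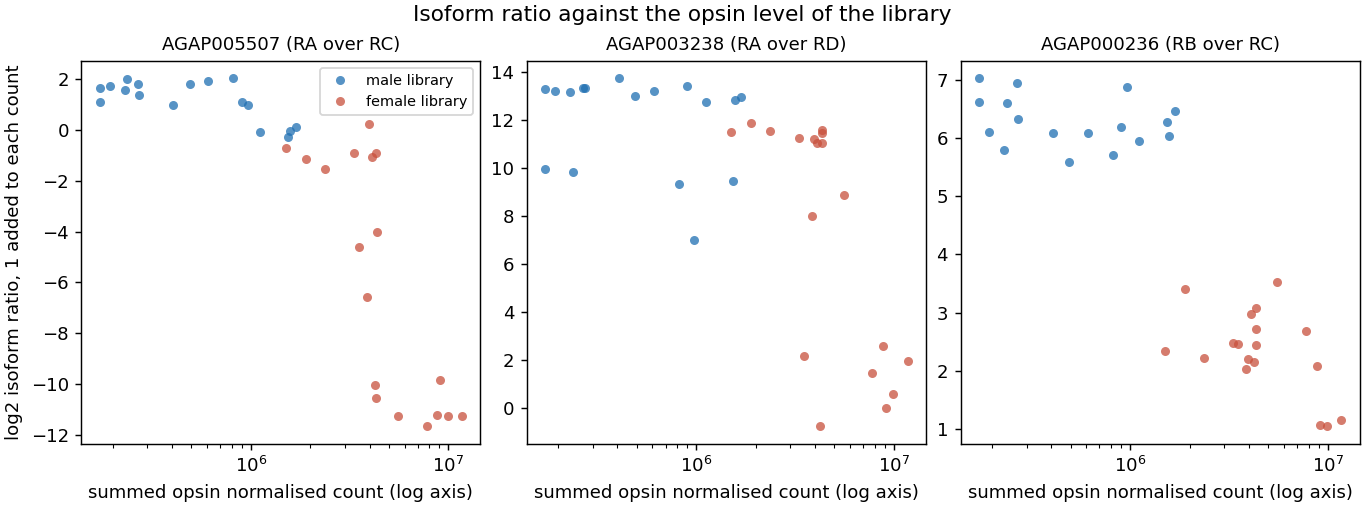
Log2 ratio of the leading male-higher to the leading female-higher isoform (1 added to each count) against the summed opsin count of the library (logarithmic axis) for the 3 genes whose isoform usage followed opsin in females. Points are libraries, blue for males and red for females. For AGAP005507 the female ratios ran from 0.23 down to -11.66, and for AGAP000236 no male ratio overlapped a female ratio.

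In males 0 of 28 genes passed this test (smallest adjusted p = 0.0564), 4 had an unadjusted p under 0.05, and limma's diffSplice called 2. Among all genes 2.13% passed, 11.2% had an unadjusted p under 0.05, and limma called 2.38%. For AGAP005507 the log2 ratio in males ran from -0.28 to 2.02.

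The opsin levels of the sexes met in a few libraries. The male libraries ZT4 replicate 3, ZT16 replicate 2 and ZT20 replicate 3 had 1537670, 1580840 and 1691490 opsin counts, more than the female library ZT12 replicate 1 at 1504190. In 25 of the 28 genes the isoform ratio was higher in each of these 3 males than in that female. The exceptions were AGAP003238, AGAP003709 and AGAP029109, the last named after its values were seen. The sex means of these isoforms chose the members, and the comparison rests on 1 female library. Nothing is read from the count, and the share over all genes was not computed. In AGAP011462 the log2 ratio was -1.70 in the female and 4.84 to 5.25 in the males. In AGAP005507 it was -0.70 in the female and -0.28 to 0.12 in the males. As a further description, a covariate for the opsin count in the fit of both sexes left isoforms in opposite directions in 27 of the 28 genes. The exception was AGAP002711, whose -RB changed sign. The count goes by sign alone, and the members were chosen for that sign, so nothing is read from it. The median log2 difference became 1.03 for the male-higher isoforms, from 1.61, and -1.96 for the female-higher isoforms, from -1.59. Single male-higher isoforms moved either way, from 1.13 to 0.11 for AGAP029913-RA and from 2.29 to 3.33 for AGAP000847-RB. The source of the opsin RNA, and the part of photoreceptor RNA in the differences between the sexes, were not tested.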

How the data were processed

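RNA-seq libraries were made by the study from full-length cDNA amplified by PCR, without molecular identifiers. Using Kallisto, the authors estimated counts for each transcript annotated in VectorBase release 53, and deposited these estimated counts in 1 table, without normalization. Estimated counts were rounded to whole numbers, and 0 columns were left without a sample. Levels are counts divided by DESeq2 (1.42.0) median-of-ratios size factors over 35 libraries. The Orco levels alone were divided by factors over all 36 libraries. Tests were made in R 4.3.3 with edgeR 4.0.16 (TMM, filterByExpr, quasi-likelihood F-test, diffSpliceDGE), each sex alone or both for the interaction, over all isoforms or genes, at an adjusted p of 0.05. In simulated data diffSpliceDGE made more false calls than this threshold allows. Alternatives used DESeq2, limma 3.58.1, other scalings and filters, a replicate block, and libraries left out. Replicates were separate collections of mosquitoes. Counting limits (a floor of 3 counts) cover counting error only.

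The members and lists were chosen with earlier results of these data known. Genes were named for the 8 largest switches, the 5 highest levels, up to 3 smallest adjusted p in each test and the 2 genes on either side of the fold threshold. No sequence is shown, since a reference for these identifiers was not used here.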

Additional observations from a re-analysis of the deposited data

How the results depend on the processing

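The number of genes that meet the rule depended on its settings. Scaling by total counts alone gave 48 (15 of the 28 among them), and the number was 43 with the discarded male library (21 of the 28), 79 at a fold of 1.5 and 8 at a fold of 3. It ran from 29 to 33 without replicate 1, 2 or 3. Under TMM, total counts, the discarded library, medians over libraries and each replicate left out, 10 of the 28 genes met the rule every time. With total counts in the fit of both sexes, the median log2 difference of all transcripts moved to 0.52, from -0.00386. The median of the male-higher isoforms moved to 2.10, from 1.61, and that of the female-higher isoforms to -1.09, from -1.59. In this fit some female-higher isoforms described above fell under 2-fold, such as AGAP011462-RB at -0.67 and AGAP006592-RB at -0.68. Others did not, such as AGAP009447-RB at -1.81. By sign alone, all 28 genes kept isoforms in opposite directions.

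Of isoforms with a time effect, males had 1 with total counts, 4 with DESeq2, 1 with the discarded library, 0 without replicate 1, 2 or 3, and 1 to 3 without single libraries. Females had 0 with total counts, 6 with DESeq2, 0 to 1 without replicate 1, 2 or 3, and 0 to 3 without single libraries. The interaction of sex and time had 2 calls with DESeq2 and 0 to 1 without replicate 1, 2 or 3. Of opsin slopes, females had 42 with total counts, 22 with DESeq2, 0 to 11 without replicate 1, 2 or 3, and 9 to 18 without single libraries. Males had 2 with total counts, 5 with DESeq2, 0 with the discarded library, and 0 to 2 without replicate 1, 2 or 3. Usage at ZT12 in males had 0 to 1 calls without replicate 1, 2 or 3. Usage following opsin had, in males, 2 calls with no filter, 2 with limma and 1 to 2 without replicate 1, 2 or 3. In females it had 0 to 4 calls without replicate 1, 2 or 3 and 2 to 5 without single libraries. Leaving out a replicate number removes 5 or 6 libraries of a sex. Leaving out single libraries was chosen after the data were seen. No called opsin slope reversed its direction. The time and usage tests give no single direction, so their calls were not compared in this way.

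The deviations of same-numbered libraries of 1 sex had correlations of -0.37 to 0.39, with a median of 0.01. For differently numbered libraries of 1 sex they ran from -0.36 to 0.43, with a median of -0.02. Same-numbered libraries of different sexes had -0.22 to 0.28, with a median of 0.06. The ranges overlapped widely, though both medians of same-numbered libraries were the higher ones. The numbers were not taken as pairs, and a replicate block was run as an alternative. With a replicate block, 3 isoforms in males and 1 in females had a time effect, 15 and 1 had opsin slopes in females and males, the interaction had 0 calls, usage at ZT12 had 0 in both sexes, and usage following opsin had 3 genes in males and 4 in females. In the time test the block added AGAP006592-RA in males and removed AGAP009447-RB in females (adjusted p = 0.0574). The causes of these changes were not tested. Depth limits the isoforms that stand at 0 in most libraries, and the division of shared reads adds an error that counts do not show.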
